A study of Mus musculus with 2 samples.

Results

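The genes described here are 10 components of elastic fibres and of the microfibrils that carry them: Fbn1, Mfap5, Thsd4, Emilin1, Eln, Fbln1, Fbln2, Fbln5, Efemp1 and Tnxb. They were chosen by symbol, and all 10 were found among the 32246 gene symbols of the deposited matrices. Their transcripts were read in single cells of mouse white fat, described as subcutaneous, in 1 library labelled Paqr4 transgenic and 1 library labelled WT. The depot was not checked here. Both libraries were made from stromal vascular cells, which remain once fat has been digested and its adipocytes removed, sorted as CD45-, that is, without the surface protein of blood leukocytes. The study asked how PAQR4 affects the pool of adipose progenitors. The labels give neither the promoter of the transgene nor the strain, age or sex of the mice, and they report that cells of 3 mice were pooled without saying whether this was done for each genotype.

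Elastic fibres give skin, vessels and the stroma of fat their recoil. They consist of an elastin core laid down on a scaffold of fibrillin microfibrils. Fibulins and EMILIN-1 sit at the border of core and scaffold, lysyl oxidases crosslink the elastin, and latent TGF-beta binding proteins dock on the microfibrils, which thereby store that growth factor. In fat, fibroblast-like progenitors are the main source of such matrix. Those marked by Dpp4 are known as interstitial progenitors, those marked by Icam1 as committed preadipocytes, and those marked by F3 (CD142) as cells that can restrain adipogenesis.

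The 10 genes lie on 8 chromosomes of the mouse genome (GRCm38, GENCODE M21, the whole gene span with exons and introns). Fbn1 lies at chr2:125300594-125507993 on the minus strand and Mfap5 at chr6:122505845-122529290 on the plus strand. Emilin1 (chr5:30913402-30921277, plus) and Eln (chr5:134702593-134747323, minus) share a chromosome, as do Mfap5 and Fbln2 (chr6:91212455-91272540, plus). Fbln1 lies at chr15:85205949-85286535 (plus), Fbln5 at chr12:101746565-101819055 (minus), Efemp1 at chr11:28853204-28926743 (plus) and Tnxb at chr17:34670535-34719815 (plus). Fbn1, Eln and Tnxb overlap annotated genes on the opposite strand (Gm9913; Gm30003; Gm24389 and Cyp21a2-ps). No source used here states whether counting kept to 1 strand, and whether reads of these partners were counted with theirs was not tested.

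The transgenic library held 43084906 UMIs (unique molecular identifiers, each counting 1 captured transcript) and 1521 usable cells, and the WT library 44145257 UMIs and 1328 cells. Median depth was 18711 UMIs per cell in the transgenic library and 21612.5 in the WT library, and the libraries shared 0 cell barcodes. The libraries differed in sex as well as in genotype: Xist had a UMI in 0.221% of transgenic progenitors and 94.1% of WT ones, and at least 1 of 4 Y-linked genes in 94.0% of transgenic and 2.04% of WT progenitors. Genotype and sex therefore cannot be told apart in any ratio given here. Paqr4 itself stood at 9.49 UPM (UMIs per 1000000 UMIs of the cell class) in transgenic progenitors and 7.87 UPM in WT ones (log2 0.27, from −0.00 to 0.54), a difference not detectable at this depth, so it gave no check of the label. In progenitors all 7 fixed progenitor markers stood at 20 UPM or more in both libraries. Clusters were named with these and the other marker lists, so marker levels are no independent check of the naming. None of the 7 endothelial markers reached 20 UPM in either (0 of 7; summed 14.3 UPM transgenic, 10.1 UPM WT), nor did any of the 7 immune markers (summed 3.11 UPM transgenic, 2.96 UPM WT). Of 6 erythroid markers 4 reached 20 UPM (summed 544 UPM transgenic, 709 UPM WT), and red-cell RNA made up 29.1% of all transgenic and 28.2% of all WT UMIs. With haemoglobin UMIs left out of the totals, the 2 ratios between genotypes that pass 1.5-fold over progenitors were the same to 2 decimals, at −2.07 for Thsd4 and 0.62 for Fbln2.

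With 1 library for each genotype no test between genotypes was possible, and none was run. Every interval is a 95% interval that covers counting error alone: exact Poisson for a level, exact Clopper-Pearson for a share of cells, and exact conditional binomial for a ratio. These intervals say nothing of how mice vary, and they are too narrow where a few cells hold many UMIs. A ratio is given as log2 of the transgenic over the WT level, and 1.5-fold (0.58 on that scale) serves as a mark of size, not of significance. The UMIs tag transcripts at the 3′ end and were not corrected for gene length, so levels are compared between cells for 1 gene and not between genes.

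Progenitors carried most of the 10 transcripts at once. With every cell thinned to 5000 UMIs, so that depth was equal, the median progenitor held UMIs of 7 of the 10 genes in both libraries, and 91.9% of transgenic and 94.3% of WT progenitors held 5 or more. Summed over the 10 genes, progenitors stood at 6110 UPM in the transgenic library (6080 to 6140) and 5695 UPM in the WT library (5666 to 5725). Blood endothelial-like cells of the same libraries stood at 277 UPM (236 to 322) and 379 UPM (341 to 420), with a median of 1 gene per cell in both. The progenitors numbered 1360 transgenic and 1128 WT cells and split into Dpp4-like cells (191 transgenic, 234 WT), Icam1-like cells (399 and 248), F3-like cells (367 and 178) and other progenitors that met no state's threshold (403 and 468), whose leading genes included Il6, Adamts4 and Cxcl10. The 10 genes and their companions were left out of the genes that made the clusters, but cells of a cluster are alike by construction, so levels across states are a description without a test.

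**Figure D1:**
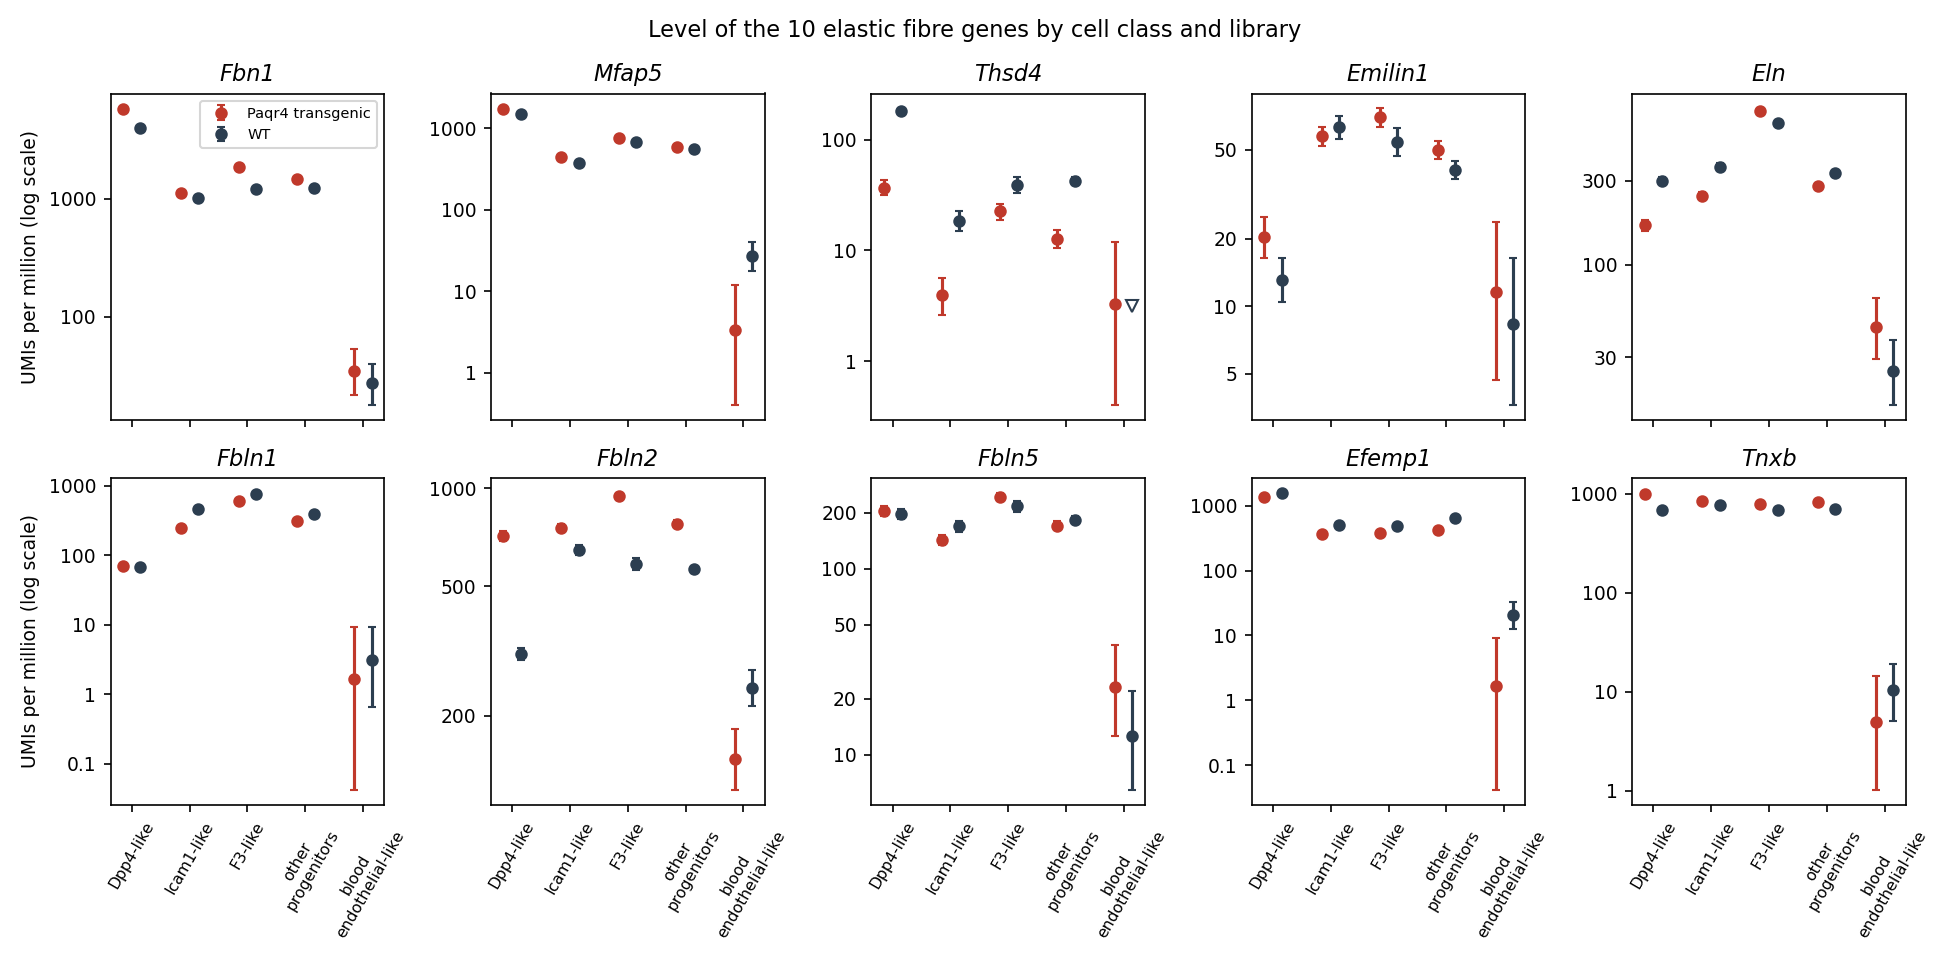
Level of each of the 10 genes, in UPM on a log scale, in 4 progenitor states and blood endothelial-like cells; red points are the Paqr4 transgenic library, dark points the WT library, bars are 95% exact Poisson intervals, and an open triangle marks the floor of 3 UMIs where none was seen. Fbn1, Mfap5 and Efemp1 are highest in Dpp4-like cells, at 5741, 1725 and 1383 UPM in the transgenic library and 3946, 1507 and 1541 UPM in WT, where Fbln1 and Emilin1 are lowest among the states.

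Of the 10 genes, 4 were highest in Dpp4-like cells by a wide margin, while others were lowest there. Those 4 stood 1.5-fold or more above the remaining progenitors in both libraries (Fbn1, Mfap5, Thsd4 and Efemp1), against 5.4% of the 8554 genes measured at 10 UPM or more in both; 2 stood 1.5-fold or more below (Fbln1 and Emilin1), against 10.1% of those genes. Not every microfibril gene shared this pattern: Fbn2, the second fibrillin, had a log2 difference of −3.51 in transgenic and −0.86 in WT Dpp4-like cells from the remaining progenitors. In Dpp4-like cells this rested on 7 transgenic and 51 WT UMIs. The remaining progenitors include small clusters described below, with 153 UPM in transgenic cluster 6 and 220 UPM in WT cluster 8. WT Dpp4-like cells had 8.29 UPM, against 4.97 UPM in the other progenitors, 11.3 UPM in the larger Icam1-like and 10.8 UPM in the larger F3-like cluster. These counts of 4 and 2 were the same under each of the 11 alternative ways of calling, clustering and weighting cells.

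Fbn1 encodes fibrillin-1, the backbone of the microfibril. In the transgenic library it stood at 5741 UPM in Dpp4-like cells and at 1462 UPM in the remaining progenitors, a 3.93-fold difference (log2 1.97, from 1.95 to 2.00). In the WT library the levels were 3946 and 1178 UPM, a 3.35-fold difference (log2 1.74, from 1.72 to 1.77). The spread over single cells was wide: the 10th percentile, median and 90th percentile were 2608, 5240 and 9341 UPM in transgenic Dpp4-like cells, and 364, 869 and 1916 UPM in transgenic Icam1-like cells. In WT the same values were 1509, 3150 and 6965 UPM in Dpp4-like and 367, 841 and 1805 UPM in Icam1-like cells. So the 10th percentile of Dpp4-like cells lay above the 90th percentile of Icam1-like cells in the transgenic library, and below it in WT.

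Mfap5 encodes MAGP-2, a small glycoprotein bound to fibrillin. It stood at 1725 UPM in transgenic Dpp4-like cells against 592 UPM in the remaining transgenic progenitors (log2 1.54, from 1.50 to 1.58), and at 1507 against 537 UPM in WT (log2 1.49, from 1.45 to 1.53). Its lowest level lay in Icam1-like cells, with 450 UPM (435 to 466) in the transgenic and 378 UPM (361 to 396) in the WT library.

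Efemp1 encodes fibulin-3, a fibulin best known from basement membranes and from loose fascia. It stood at 1383 UPM in transgenic Dpp4-like cells and 389 UPM in the remaining progenitors (log2 1.83, from 1.78 to 1.88). In WT it stood at 1541 and 587 UPM (log2 1.39, from 1.35 to 1.43). The other 3 states lay close together, between 369 and 415 UPM in the transgenic library and between 489 and 653 UPM in WT.

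Thsd4 encodes ADAMTSL6, an ADAMTS-like protein that binds fibrillin-1 and promotes microfibril assembly. In the transgenic library it stood at 36.7 UPM (31.3 to 42.8) in Dpp4-like cells and 12.7 UPM in the remaining progenitors, a 2.89-fold difference (log2 1.53, from 1.24 to 1.81). In WT the levels were 180 UPM (170 to 191) and 35.9 UPM, a 5.02-fold difference (log2 2.33, from 2.19 to 2.47). Thinned to 5000 UMIs, 10.1% of transgenic and 43.7% of WT Dpp4-like cells held a Thsd4 UMI.

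Fbln1 and Emilin1 ran the other way. Fbln1 encodes fibulin-1, found with elastin and in basement membranes. It stood at 70.5 UPM (62.9 to 78.8) in transgenic Dpp4-like cells and 378 UPM in the remaining progenitors, 5.37-fold lower in Dpp4-like cells (log2 −2.42, from −2.59 to −2.26). In WT it stood at 68.9 UPM (62.5 to 75.8) and 473 UPM, 6.87-fold lower (log2 −2.78, from −2.92 to −2.64). With the libraries clustered separately the transgenic value was −1.42. Emilin1 encodes EMILIN-1, which links elastin and microfibrils and restrains TGF-beta processing. It stood at 20.4 UPM in transgenic Dpp4-like cells against 58.3 UPM in the other progenitors (log2 −1.52, from −1.84 to −1.21), and at 13.2 against 48.6 UPM in WT (log2 −1.88, from −2.23 to −1.56).

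The promoters of Efemp1 and Thsd4, higher in Dpp4-like cells, and of Fbln1, lower there, are printed here so that the sequences ahead of genes with opposite patterns can be read side by side. They come from RefSeq's annotation of GRCm38.p6, 5′ to 3′ on the gene's own strand and ending just before the annotated start; the table held 8 of the 10 genes. The RefSeq start of Thsd4 lies inside the longer GENCODE gene. Capitals mark matches to 5 short motifs, searched on both strands.
Efemp1 chr11:28852955-28853203 (+): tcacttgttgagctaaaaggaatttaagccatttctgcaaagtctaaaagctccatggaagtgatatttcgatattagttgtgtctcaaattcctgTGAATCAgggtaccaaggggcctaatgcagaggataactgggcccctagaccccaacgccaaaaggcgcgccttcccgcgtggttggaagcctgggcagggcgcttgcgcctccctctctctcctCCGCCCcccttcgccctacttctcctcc
Thsd4 chr9:60511036-60511285 (−): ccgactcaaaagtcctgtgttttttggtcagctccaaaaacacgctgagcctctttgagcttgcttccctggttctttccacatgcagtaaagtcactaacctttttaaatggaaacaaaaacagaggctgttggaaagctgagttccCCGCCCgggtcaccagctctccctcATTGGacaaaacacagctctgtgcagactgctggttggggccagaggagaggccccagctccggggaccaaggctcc
Fbln1 chr15:85205699-85205948 (+): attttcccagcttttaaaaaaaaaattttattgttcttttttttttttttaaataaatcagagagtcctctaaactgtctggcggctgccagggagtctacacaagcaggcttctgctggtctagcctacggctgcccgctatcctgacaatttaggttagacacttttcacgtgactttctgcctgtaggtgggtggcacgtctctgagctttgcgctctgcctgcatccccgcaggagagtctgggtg

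Efemp1 held a GC box (GGGCGG) read on the reverse strand as CCGCCC, and a match to a loose AP-1 pattern (TGANTCA, where N is any base) as TGAATCA. Thsd4 held a GC box, and a CCAAT box read as ATTGG. Fbln1 held none of the 5 motifs (0 of 5), which says no more than that these letters are not in its window. Among 32851 promoters of the same length, 32.7% held the GC box, 33.8% the CCAAT box, 12.4% the TATA box (TATAAA), 6.75% the loose AP-1 pattern and 12.6% the TEAD motif (GGAATG). A match is a description of the letters, not a binding site. The GC content of the windows was 53.4% for Efemp1, 52.8% for Thsd4 and 46.4% for Fbln1.

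In Icam1-like cells the 4 genes that were high in Dpp4-like cells were low against the remaining progenitors, which include the Dpp4-like cells. None of the 10 genes stood 1.5-fold or more above the remaining progenitors in both libraries (0 of 10, all genes 5.56%), and 4 stood as far below: Fbn1, Mfap5, Thsd4 and Efemp1 (all genes 4.74%). Fbn1, Mfap5 and Thsd4 were also below the F3-like cells and the other progenitors taken alone, in both libraries. Efemp1 was near its F3-like level, with 369 UPM in transgenic and 503 UPM in WT Icam1-like cells against 377 and 489 UPM in F3-like cells. Fbn1 had 1121 UPM in transgenic and 1019 UPM in WT Icam1-like cells, against 2570 and 2030 UPM in the remaining progenitors (log2 −1.20 transgenic, −0.99 WT). Thsd4 had 3.93 UPM from 28 UMIs in transgenic and 18.6 UPM from 89 UMIs in WT Icam1-like cells, against 21.5 and 82.4 UPM in the rest (log2 −2.45 and −2.15). Fbn2 went the other way in WT, at 39.2 UPM in Icam1-like cells and 7.47 UPM in the rest (log2 2.39), and had 5.76 and 18.8 UPM in the transgenic library (log2 −1.70). The WT value rests on a small Icam1-like group, cluster 8, with 141 UMIs in 35 cells, 70.2% of them in 5 cells. The larger Icam1-like group, cluster 2, had 47 UMIs in 213 WT cells, or 11.3 UPM. Of the Icam1-like cells, 5 held 71.4% of the transgenic and 67.4% of the WT Thsd4 UMIs.

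In the other progenitors 0 of the 10 genes were 1.5-fold or more higher than in the remaining states in both libraries (all genes 3.98%), and 1 was lower, Fbn1 (all genes 8.76%), at 1460 UPM in the transgenic and 1239 UPM in the WT library. The remaining states include the Dpp4-like cells, on which this call rests. Fbn1 had 1121 UPM in transgenic and 1019 UPM in WT Icam1-like cells, and 1843 and 1198 UPM in F3-like cells.

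Elastin itself peaked in F3-like cells. Eln stood at 747 UPM (726 to 769) in transgenic F3-like cells and 243 UPM in the remaining progenitors, 3.08-fold higher (log2 1.62, from 1.56 to 1.68). In WT it stood at 635 UPM (609 to 662) and 329 UPM, 1.93-fold higher (log2 0.95, from 0.88 to 1.02). Fbln1 followed the same direction, at 612 UPM in transgenic F3-like cells against 235 UPM in the rest (log2 1.38) and 764 against 316 UPM in WT (log2 1.27). These were the 2 genes of the 10 at 1.5-fold or more above in both libraries (all genes 5.27%), and Efemp1 was the 1 gene as far below (log2 −0.70 transgenic, −0.83 WT, all genes 3.63%). The cells it is set against include the Dpp4-like cells. In F3-like cells Efemp1 stood at 377 UPM transgenic and 489 UPM WT, near Icam1-like cells at 369 and 503 UPM. Over single cells the median Eln level was 428 UPM in transgenic and 333 UPM in WT F3-like cells, with 90th percentiles of 1841 and 1317 UPM, well above the medians.

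The F3-like cells formed 2 clusters that differed for elastin and fibrillin. The smaller one, cluster 6 (112 transgenic and 38 WT cells), was led by Wnt4, Itgbl1, Tgfbi and Fbn2, and had 1077 UPM of Eln (1030 to 1125) in the transgenic and 724 UPM (666 to 786) in the WT library. The larger one, cluster 4 (255 transgenic and 140 WT cells), had 614 UPM (592 to 637) and 609 UPM (580 to 639). Fbn1 ran against this: cluster 6 had 1131 UPM in the transgenic and 964 UPM in the WT library, and cluster 4 had 2132 and 1268 UPM. Fbn2, known mainly from development, stood at 153 UPM (135 to 172) in transgenic and 25.3 UPM (15.5 to 39.1) in WT cells of cluster 6. It was also the last of the 10 leading genes of cluster 8, a small Icam1-like group, at 77.2 UPM in 10 transgenic cells and 220 UPM in 35 WT cells, where 5 cells held 81.8% of the transgenic and 70.2% of the WT UMIs. In the transgenic cells of that group Mfap5 stood at 35.1 UPM from 5 UMIs and in WT at 131 UPM from 84 UMIs, below every other progenitor cluster of its library.

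Fbln5 and Tnxb stood within 1.5-fold of the remaining progenitors in each of the 4 states of both libraries. Fbln5, whose product fibulin-5 helps deposit elastin on microfibrils, ranged from 143 to 243 UPM over the 4 states in the transgenic library and from 169 to 217 UPM in WT. Tnxb, which encodes tenascin-X, a glycoprotein that spaces collagen fibrils and whose loss in humans causes lax skin, ranged from 780 to 985 UPM in the transgenic library and from 676 to 768 UPM in WT. Set directly against each other, Icam1-like and F3-like cells of the transgenic library lay farther apart for Fbln5, at 143 and 243 UPM. Tnxb reached its highest transgenic level in Dpp4-like cells, with 985 UPM (956 to 1014). In WT the same state had 676 UPM (656 to 697). This overlapped F3-like cells at 680 UPM (652 to 708) and the other progenitors at 695 UPM (680 to 711). Fbln2, encoding fibulin-2, ranged from 712 to 943 UPM over the states in the transgenic library and from 309 to 647 UPM in WT.

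The next comparison was of the Paqr4 transgenic with the WT library over all progenitors. Of the 10 genes 5 lay above no difference and 5 below, and their median ratio was 0.00 on the log2 scale, against 0.09 for the 8748 genes at 10 UPM or more in a library. Fbln2 was 1.5-fold or more higher in the transgenic library, 1 of 10 genes where 2.72% of all genes were, and Thsd4 was 1.5-fold or more lower, 1 of 10 where 1.75% were.

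Thsd4 had the largest ratio. It stood at 16.7 UPM (15.2 to 18.4, from 441 UMIs) in transgenic progenitors and 70.4 UPM (67.2 to 73.8, from 1808 UMIs) in WT ones, 4.21-fold lower in the transgenic library (log2 −2.07, from −2.23 to −1.92). Over 14 alternatives the value ran from −2.17 to −1.88. A Thsd4 UMI was found in 10.4% of transgenic and 27.5% of WT progenitors, and in 4.72% (3.64 to 6.01) and 16.6% (14.4 to 18.9) with cells thinned to 5000 UMIs. For comparison, blood endothelial-like cells had one in 1.59% of 63 transgenic cells and 0 of 77 WT cells at that depth. The UMIs were not carried by a handful of cells: the 5 richest cells held 12.9% of the transgenic and 7.08% of the WT total.

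Thsd4 is a long gene, on the minus strand of chromosome 9 from 59966931 to 60522046 (GRCm38, GENCODE M21) and spans 555 kb, so its ratio was also set beside those of genes of like length. Among the 244 genes at 50 UPM or more that span 300 kb or more, the median ratio was 0.08 and 6.56% were 1.5-fold or more lower; among the 2561 genes under 100 kb the median was 0.07 and 1.21% were as far lower. Of the long genes 2, and of the short ones 3, had a lower ratio than Thsd4. It overlaps 4 annotated genes, 2 of them on the same strand, and its reads could be split with these.

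Thsd4 was lower in the transgenic library in each of the 4 states. It stood at 36.7 UPM in transgenic and 180 UPM in WT Dpp4-like cells (log2 −2.30, from −2.54 to −2.06), and this ran from −2.59 to −2.20 over 11 alternatives. In Icam1-like cells the ratio was −2.24 (from −2.91 to −1.61), on 28 and 89 UMIs, but −0.53 when cells needed 2000 UMIs and 1000 genes. In F3-like cells it stood at 22.5 UPM in transgenic and 39.0 UPM in WT (log2 −0.79, from −1.14 to −0.44), which moved to −1.87 when the libraries were clustered separately and to −0.29 when doublets were kept. Keeping the doublets redrew the clusters, so that 163 transgenic and 88 WT cells were F3-like in place of 367 and 178, and values under that setting describe a different set of cells. Resolution 0.3 did the same, with 111 transgenic and 38 WT F3-like cells, and 789 and 512 Icam1-like cells in place of 399 and 248. In the other progenitors Thsd4 stood at 12.7 and 42.3 UPM (log2 −1.73, from −2.05 to −1.43), which moved to −2.77 when the libraries were clustered separately.

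Fbln2 was the gene past the mark on the higher side. It stood at 801 UPM (791 to 812) in transgenic and 521 UPM (512 to 530) in WT progenitors, 1.54-fold higher (log2 0.62, from 0.59 to 0.65). This lies close to the mark: it was 0.58 when every cell weighed the same, and 0.54 when the median ratio of all genes, 0.08, was taken as no difference. Thinned to 5000 UMIs, 92.4% of transgenic and 81.7% of WT progenitors held a Fbln2 UMI. By state the ratio was 1.20 in Dpp4-like cells (from 1.12 to 1.28), at 712 UPM in transgenic and 309 UPM in WT, and 0.69 in F3-like cells (from 0.62 to 0.76), at 943 and 585 UPM, though 0.36 when doublets were kept. It was 0.46 in the other progenitors and 0.23 in Icam1-like cells. In Dpp4-like cells the value ran from 1.09 to 1.32 over 11 alternatives. Whether the states differ in this ratio was not tested, since each ratio comes from 1 library of each genotype.

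Efemp1 stood at 555 UPM (546 to 564) in transgenic and 815 UPM (804 to 827) in WT progenitors (log2 −0.55, from −0.59 to −0.52), short of 1.5-fold, but −0.64 when the median ratio of all genes was taken as no difference. Dpp4-like cells, which had its highest level, were 14.0% of transgenic and 20.7% of WT progenitors, and with the states weighted equally the ratio was −0.32. Within the states it ran from −0.66 in the other progenitors, past the mark but −0.56 at clustering resolution 1.0, to −0.16 in Dpp4-like cells, where the gene stood at 1383 UPM in transgenic and 1541 UPM in WT cells.

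Fbn1 stood at 2179 UPM (2161 to 2197) in transgenic and 1841 UPM (1825 to 1858) in WT progenitors (log2 0.24, from 0.23 to 0.26). It was higher in the transgenic library in each state, at 0.54 in Dpp4-like cells (5741 UPM transgenic, 3946 UPM WT), 0.62 in F3-like cells (1843 and 1198 UPM), 0.24 in the other progenitors and 0.14 in Icam1-like cells. With equal weights for the states the ratio over progenitors was 0.46. The F3-like value fell short of 1.5-fold under 5 of 10 alternatives, down to 0.43.

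Eln was level over progenitors as a whole, at 365 UPM (358 to 373) in the transgenic and 370 UPM (363 to 378) in the WT library (log2 −0.02, from −0.06 to 0.02). The values within states were less even, and they depended on how the cells were clustered. In Dpp4-like cells it stood at 167 UPM (155 to 180) in transgenic and 299 UPM (285 to 313) in WT (log2 −0.84, from −0.96 to −0.71), and in Icam1-like cells at 247 and 358 UPM (log2 −0.54). In F3-like cells it stood at 747 UPM in transgenic and 635 UPM in WT (log2 0.23, from 0.16 to 0.31). F3-like cells, which had the highest level, were 27.0% of transgenic and 15.8% of WT progenitors. With the libraries clustered separately the Dpp4-like ratio was −0.38, the Icam1-like ratio −0.34 and the F3-like ratio −0.01, and with doublets kept they were −0.56, −0.09 and 0.46. A split between the states was therefore not stable under these settings.

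Fbln1 stood at 327 UPM in transgenic and 377 UPM in WT progenitors (log2 −0.20, from −0.25 to −0.16). In Icam1-like cells it stood at 251 UPM (240 to 263) in transgenic and 463 UPM (444 to 483) in WT (log2 −0.88, from −0.97 to −0.79), a value that ran from −0.95 to −0.47 over the alternatives and fell short of the mark with doublets kept and at resolution 0.3. Both settings redrew which cells were Icam1-like. In Dpp4-like cells, where the level was low in both libraries, the ratio was 0.03 (from −0.18 to 0.25), but 1.10 when the libraries were clustered separately.

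The remaining 4 genes lay within 1.5-fold over progenitors. Emilin1 stood at 52.0 UPM (49.2 to 54.8) in transgenic and 40.1 UPM (37.7 to 42.7) in WT (log2 0.37, from 0.25 to 0.49). Tnxb stood at 845 UPM in transgenic and 702 UPM in WT (log2 0.27, from 0.24 to 0.30), with 0.54 in Dpp4-like cells. Mfap5 stood at 782 and 770 UPM (log2 0.02, from −0.01 to 0.05), and Fbln5 at 187 and 189 UPM (log2 −0.02, from −0.07 to 0.04). Emilin1 in Dpp4-like cells, at 0.63 (from 0.18 to 1.08), rested on 90 transgenic and 81 WT UMIs, and was short of the mark at resolution 0.3 (0.51) and when every cell weighed the same (0.56).

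**Figure D2:**
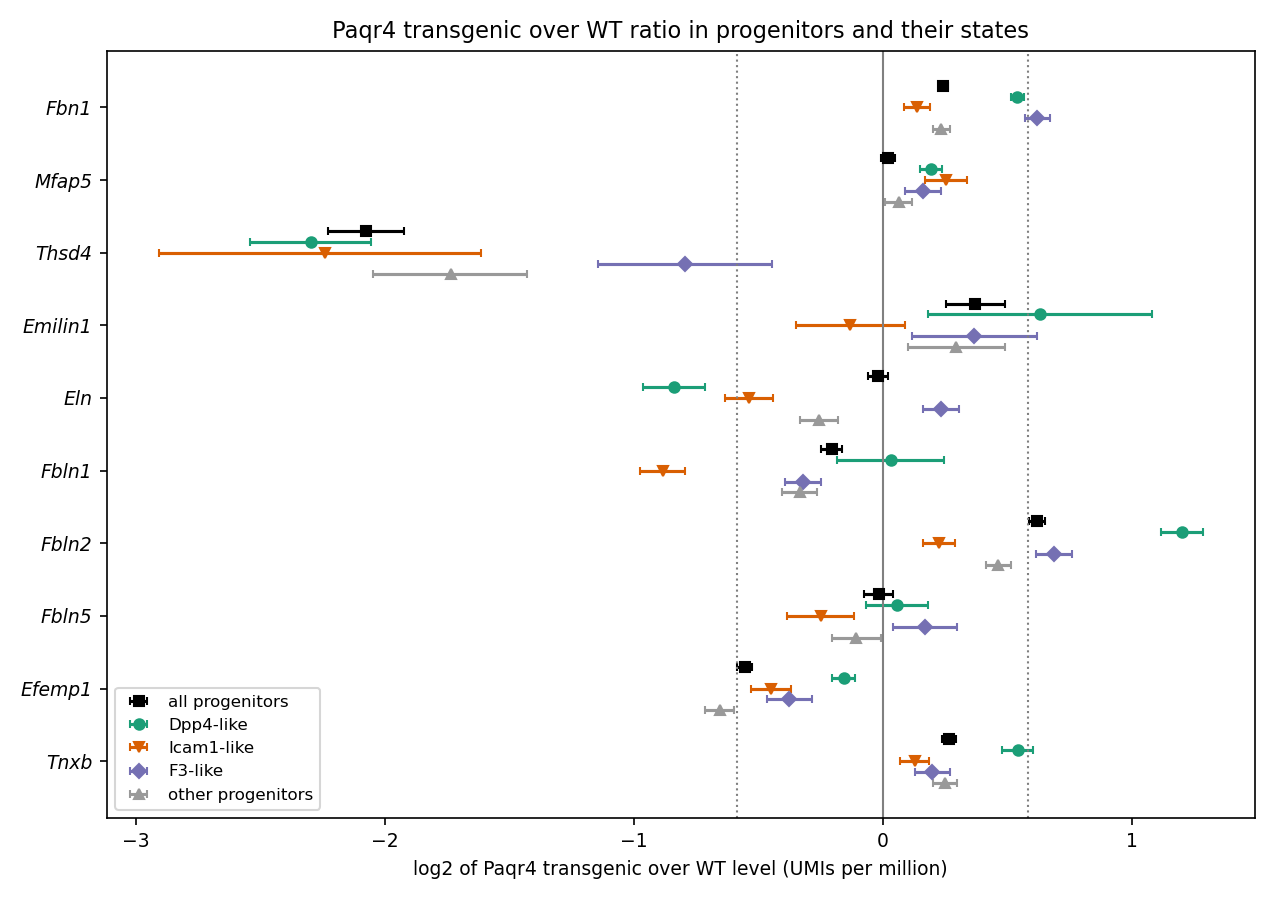
Log2 of the Paqr4 transgenic over the WT level for each gene, over all progenitors and in 4 states; bars are 95% exact conditional binomial intervals for counting error and dotted lines mark 1.5-fold. Thsd4 lies left of 0 in every class, from −2.30 in Dpp4-like to −0.79 in F3-like cells, Fbln2 lies right of 0 in every class, and Eln lies on both sides.

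Set against all genes of the same state, the counts were as follows. In Dpp4-like cells 2 of 10 genes were 1.5-fold or more higher in the transgenic library, Fbln2 and Emilin1, where 6.76% of all genes were, and 2 lower, Thsd4 and Eln, where 4.21% were. In Icam1-like cells 0 were higher (all genes 4.33%) and 2 lower, Thsd4 and Fbln1 (all genes 4.7%). In F3-like cells 2 were higher, Fbn1 and Fbln2 (all genes 4.78%), and 1 lower, Thsd4 (all genes 5.48%). In the other progenitors 0 were higher (all genes 3.4%) and 2 lower, Thsd4 and Efemp1 (all genes 2.57%). The median of the 10 ratios was 0.13 in Dpp4-like, −0.19 in Icam1-like, 0.18 in F3-like and −0.02 in the other progenitors, where all genes had 0.08, 0.02, 0.04 and 0.05. Of these 11 values past the mark within states, 3 stayed past it under every alternative run: Thsd4 in Dpp4-like and in the other progenitors, and Fbln2 in Dpp4-like cells. The other 8 fell short under at least 1.

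**Figure D3:**
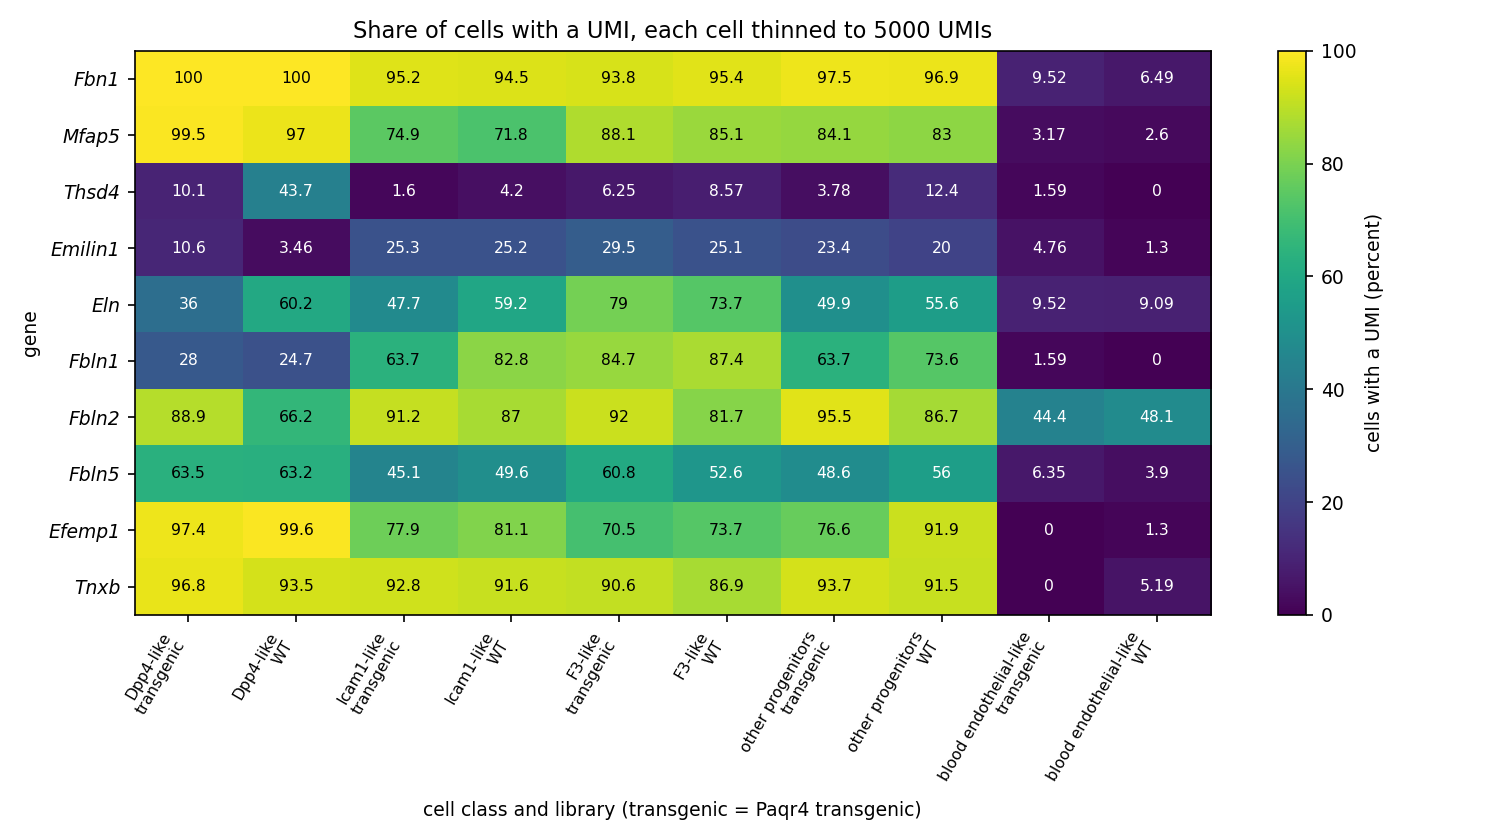
Share of cells with a UMI of each gene, in percent, with each cell thinned to 5000 UMIs and shallower cells left out; columns are 5 cell classes, each with the Paqr4 transgenic library left of WT. Fbn1 is found in 93.8% or more of the cells of every progenitor state, Thsd4 in 1.60% to 43.7%, and in blood endothelial-like cells Fbln2 is found in 44.4% and 48.1% while every other gene is at 9.52% or less.

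Over single progenitors the thinned counts of most pairs of the genes had a low correlation. On log2 counts thinned to 5000 UMIs (1313 transgenic and 1103 WT cells, all of 1 library each), 5 of the 45 pairs had a Pearson r above 0.2 in each library, and the median r was 0.08 in transgenic and 0.03 in WT cells. Sparse counts hold r near 0: thinned Thsd4 averaged 0.0792 UMIs per transgenic and 0.322 per WT progenitor, and Emilin1 0.286 and 0.213. Pairs of other genes were not measured, so these values do not show whether the genes vary together weakly. Fbn1 with Mfap5 had the highest r, 0.51 in transgenic and 0.53 in WT cells, and within Dpp4-like cells 0.39 and 0.37. Fbln1 with Efemp1 had the lowest, −0.26 in transgenic and −0.39 in WT cells. Inside the 4 states Fbln1 with Efemp1 ran from −0.32 to −0.08 in transgenic and from −0.23 to −0.02 in WT cells, and Fbn1 with Mfap5 from 0.20 to 0.42 and from 0.31 to 0.45, so Fbn1 and Mfap5 varied together inside every state.

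In blood endothelial-like cells (79 transgenic, 95 WT), Fbln2 was the gene seen in the most cells. Fbln2, which is also known from the vessel wall, stood at 148 UPM from 89 UMIs in transgenic and 244 UPM from 233 UMIs in WT cells, that is, at 18.4% and 46.8% of the progenitor level of the same library. Fbn1 stood at 34.8 UPM from 21 UMIs and 27.2 UPM from 26 UMIs, at 1.60% and 1.48% of the progenitor level. These cells held 4.24 Fbln2 UMIs for each Fbn1 UMI in the transgenic library and 8.96 in WT, against 0.425 and 0.366 in barcodes of 50 or fewer UMIs, which sample the free RNA. By share, a Fbln2 UMI was in 44.4% (31.9 to 57.5) of transgenic and 48.1% (36.5 to 59.7) of WT cells thinned to 5000 UMIs, and a Fbn1 UMI in 9.52% (3.58 to 19.6) and 6.49% (2.14 to 14.5). Emilin1 stood at 22.3% of the progenitor level in transgenic and 20.9% in WT cells, but on 7 and 8 UMIs. Eln stood at 12.2% and 6.78%, and Fbln5 at 12.4% and 6.66%. These 3 genes also lay above the low barcodes per Fbn1 UMI. Emilin1 had 0.333 in transgenic and 0.308 in WT cells against 0.0322 and 0.0350, Eln 1.29 and 0.923 against 0.218 and 0.347, and Fbln5 0.667 and 0.462 against 0.117 and 0.139. Fbln1 and Tnxb lay below the low barcodes in both libraries, and Mfap5, Thsd4 and Efemp1 on different sides. A few cells set these ratios: 5 cells held 76.2% of the 21 transgenic and 80.8% of the 26 WT Fbn1 UMIs. In WT 1 cell held 15 of the 26 Fbn1 UMIs, and in the transgenic library 1 cell held 8 of the 14 Fbln5 UMIs. Fbln1 was at 1 UMI in transgenic and 3 UMIs in WT cells, and Efemp1 at 1 and 20 UMIs. The endothelial cells were shallower than progenitors, with medians of 7584 UMIs in transgenic and 9857 UMIs in WT cells against 19335 and 22599.5 UMIs.

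The 12 lymphatic endothelial-like cells, 6 from each library, had another set. Fbln2, Fbln1 and Efemp1 were at 0 UMIs in both libraries. With 0 set to the floor of 3 UMIs, Fbln2 lay 15.0-fold below transgenic and 11.1-fold below WT progenitors. These folds are not bounds, as the upper ends of its intervals were 65.6 UPM in transgenic and 57.9 UPM in WT cells. Thsd4 had 31 UMIs in transgenic and 15 in WT cells, Eln 19 and 23, Tnxb 31 and 21, Fbn1 21 and 20, and Fbln5 15 and 5. So few cells describe these libraries and no more.

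Genes that make, modify or bind elastic fibres were read in progenitors alongside, as 6 lists of companions. Among the relatives of the microfibril and elastin genes, 3 of 9 at 10 UPM or more were 1.5-fold or more higher in the transgenic library, where 2.72% of all genes were, and 0 lower, where 1.75% were (median ratio 0.06; all genes 0.09). With equal state weights 2 were higher and 2 lower. Hmcn2, encoding the large matrix protein hemicentin-2, stood at 231 UPM in transgenic and 81.4 UPM in WT progenitors (log2 1.50, from 1.43 to 1.58). Fbln7 stood at 18.5 and 9.39 UPM (log2 0.98, from 0.75 to 1.21). Mfap4, which binds elastin and collagen, stood at 36.9 and 20.3 UPM (log2 0.87), but at 0.19 with equal state weights; it is a leading gene of F3-like cluster 4. Mfap2, encoding MAGP-1, the partner of Mfap5 on fibrillin, stood at 45.6 UPM in transgenic and 67.6 UPM in WT (log2 −0.57, from −0.68 to −0.46), which passed the mark at −0.63 with equal state weights, and within Dpp4-like cells at 25.8 and 67.8 UPM (log2 −1.39, from −1.70 to −1.09).

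Of 7 ADAMTS and ADAMTS-like genes, 2 were higher (all genes 2.72%) and 1 lower (all genes 1.75%; median −0.08), and with equal state weights 2 were higher and 0 lower. Adamts6, a protease that acts on microfibrils, stood at 85.6 UPM in transgenic and 31.9 UPM in WT progenitors (log2 1.42, from 1.31 to 1.54). In Dpp4-like cells it stood at 209 and 46.3 UPM (log2 2.17, from 1.98 to 2.37). Adamts19 stood at 93.3 and 53.9 UPM (log2 0.79, from 0.70 to 0.89). Adamtsl1 stood at 456 and 750 UPM (log2 −0.72, from −0.75 to −0.69), and at −0.56 with equal state weights, while Adamtsl4 had −0.41. Like Thsd4, Adamtsl1 was highest in Dpp4-like cells, with 1389 UPM in transgenic and 1517 UPM in WT, but there it had a ratio of −0.13, where Thsd4 had −2.30.

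The other 4 lists held no gene past 1.5-fold among those at 10 UPM or more, where 2.72% of all genes were higher and 1.75% lower. With lists this short and shares this low, a count of 0 does not set them apart from all genes. For the 6 latent TGF-beta binding proteins and TGF-beta ligands (0 past the mark, median 0.11), Tgfb1 had a ratio of 0.46, Ltbp4, whose product helps fibulin-5 reach the fibre, −0.40, Tgfb3 0.20 and Ltbp1 0.15. For the 4 crosslinking enzymes (0, median 0.15), Lox stood at 139 UPM in transgenic and 112 UPM in WT (log2 0.31, from 0.24 to 0.38), Loxl2 had 0.15, Loxl1, the oxidase tied to elastic fibre renewal, 0.14 and Loxl3 0.07. For the 5 elastin-degrading proteases (0, median −0.19), Mmp2 stood at 237 and 326 UPM (log2 −0.46, from −0.51 to −0.41), and at −0.60, past the mark, with equal state weights; Ctsl had −0.22, Mmp14 −0.19 and Ctsk 0.18. For the 8 integrins and receptors (0, median 0.15), Itga9 had 0.50, Itga5 −0.40, Itgb8 0.36 and Glb1, whose gene also yields the elastin binding protein, 0.22. Itga5, a fibronectin receptor subunit, was higher in the other progenitors and Dpp4-like cells than in the other 2 states, and with equal state weights its ratio was −0.11.

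**Figure D4:**
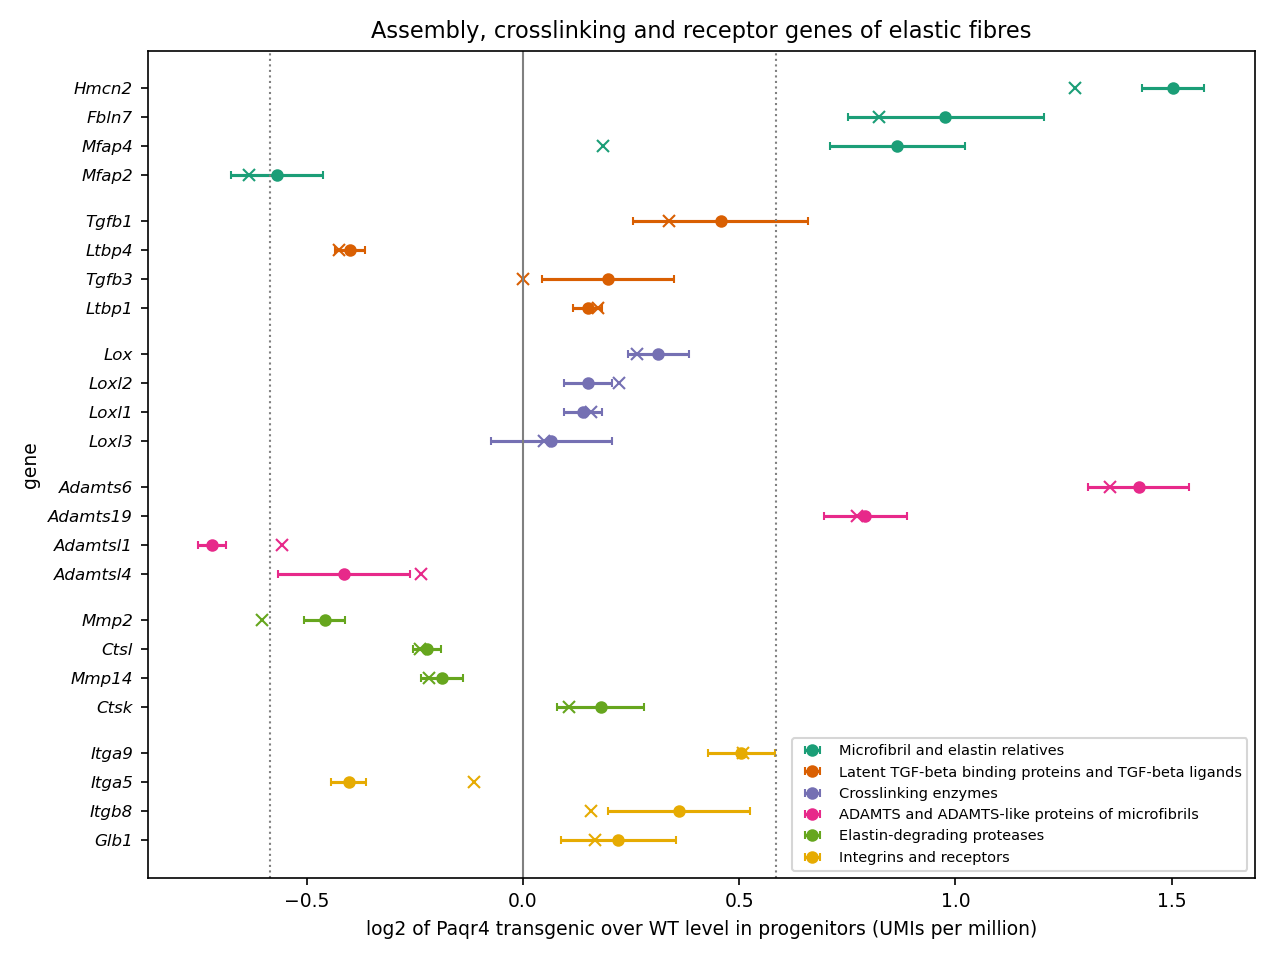
Log2 of the Paqr4 transgenic over the WT level in progenitors for up to 4 genes of each companion list, those with the largest ratios among genes at 10 UPM or more; dots with bars are the ratio and its 95% exact conditional binomial interval, crosses the ratio with the 4 states weighted equally, dotted lines 1.5-fold. Hmcn2 at 1.50 and Adamts6 at 1.42 lie farthest right, and the cross of Mfap4, at 0.19, lies away from its dot at 0.87.

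Genes with the most similar level pattern were sought over 11 classes (clusters of 50 or more cells, split by library) among 5351 genes, by Pearson r of log2(UPM + 1). The nearest were Gas7 and Dbn1 for Fbn1 (r 0.995 and 0.993), Dnm1 and Sytl2 for Mfap5, Postn and Alcam for Thsd4 (r 0.944 and 0.929), Mgp and Ppl for Emilin1, Mitf and Gaa for Eln, Ntrk2 and Ephb2 for Fbln1, Rrbp1 and Anxa5 for Fbln2, Ssc5d and Olfml2b for Fbln5, Esr1 and Fgfr1 for Efemp1, and Col5a1 and Pard3 for Tnxb (r 0.998 and 0.997). The classes share libraries and depth, and the gap between progenitors and endothelial cells sets much of each r. Of the 20 genes named, 0 recurred by Spearman rank and 3 recurred among the 9 progenitor classes alone, so the choice of neighbours rests on the measure.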

How the data were processed

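Droplet single-cell RNA was measured in 1 Paqr4 transgenic and 1 WT library. The deposited matrices hold counts, raw UMIs for each gene and barcode, made by the authors with Cell Ranger; the version is 7.0.0 on build mm10 per the submitters' processing notes and 4 per the file headers. Features with the same symbol were summed. A barcode was used where it held at least 1000 UMIs and 500 genes with no more than 10% of UMIs mitochondrial (1525 transgenic, 1329 WT); Scrublet marked 4 and 1 of them as doublets, so few doublets were removed. Cells of both libraries were scaled to 10000 UMIs, log-transformed and clustered together (scanpy 1.11.5; 2000 variable genes without the 10 genes and their companions, 30 components, 15 neighbours; Leiden resolution 0.5, leidenalg 0.10.2, seed 1). A marker was on at 25% of its highest level and 20 UPM; a class needed 50% of its markers, and at least 3, and a progenitor state 3 markers at 1.5-fold. Clusters 7, 9 and 15 stayed unnamed, with leading genes of erythroid cells, pancreas and adipocytes. The pancreas-like cluster 9 held 5 transgenic and 25 WT cells, and the mesothelial cluster 10 held 10 and 11. How these cells came into a sample described as subcutaneous fat was not tested. These thresholds, including the rule that leading genes be found in 25% of a cluster's cells, were chosen after clusters were seen, and the 10 genes and all lists were chosen with earlier results of these data known. Other tools were Python 3.11.15, numpy 2.4.6, scipy 1.17.1 and pandas 2.3.3.

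UMIs were summed over a class and divided by its total to give UPM, with exact intervals from scipy. The 10 genes are always named; from each companion list up to 4 genes with the largest ratio in progenitors at 10 UPM or more are named, with the 2 genes of most similar pattern for each. Other companion values, in single states, and the Fbn2 values were chosen after they were seen. The floor for a gene at 0 is 3 UMIs for each library and class. Intervals and ratios were tried on simulated Poisson counts summed over each library. Those counts hold no variation between cells or mice, so this checks the arithmetic alone. GENCODE M21 (GRCm38), which held 32158 of the features, gave gene positions and RefSeq the promoter sequences.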

Additional observations from a re-analysis of the deposited data

Results flagged for a closer look

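Thsd4 stood above its progenitor level in small cell classes that no comparison uses, over both libraries. It had 384 UPM in the 12 lymphatic endothelial-like cells, 310 UPM in 21 mesothelial cells, 304 UPM in 17 pericytes or smooth muscle cells, 402 UPM in 15 epithelial cells and 440 UPM in 9 Schwann cells. Progenitors had 43.2 UPM and blood endothelial-like cells 1.28 UPM from 2 UMIs in 1 of 174 cells, and 10 immune cells had 0 UMIs. In the epithelial cells 77 of the 131 UMIs, 58.8%, came from 1 cell. In the other 4 classes the richest cell held 32.6% to 40.8% of the UMIs, and a Thsd4 UMI was found in 35.3% to 77.8% of the cells.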

How the results depend on the processing

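With 1 library for each genotype no replicate could be left out. No paired analysis was possible because each genotype has 1 library and the labels carry no replicate number. Of 126 recomputed counts and medians 106 were unchanged within 1.5 times and 20 moved; of 1450 single-gene values 996 stayed within their interval. The sign changed in 53, and in 2 of these the starting value was past 1.5-fold. The count of genes higher over progenitors, 1, became 0 when every cell weighed the same and when ratios were scaled by the median ratio, which also made the count of lower genes 2. Icam1-like cells gained 1 higher gene at resolution 0.3, where 789 transgenic and 512 WT cells were Icam1-like in place of 399 and 248. The count lower in F3-like cells, 1, was 0 at 2000 UMIs and at 5% mitochondrial UMIs, 3 with doublets kept, and 2 at resolution 0.3 or with each library clustered on its own. The 4 higher values within states were 2 with doublets kept. Eln in transgenic Icam1-like cells over the remaining progenitors, −0.73, turned to 0.36 with doublets kept and at resolution 0.3. Both settings redrew the states, so these values describe different sets of cells. The median share of progenitors with a UMI, 88.3% in transgenic and 91.4% in WT, was 71.2% and 74.6% with cells thinned to 5000 UMIs, and 46.4% and 52.2% at 2000 UMIs. Companions higher by 1.5-fold, 5, were 3 at 50 UPM and 9 with no floor; those lower, 1, were 7 with no floor and 3 with equal state weights. Genes of similar pattern in common were 0 of 20 by Spearman and 3 over progenitor classes alone, an alternative added after the data were seen. The causes were not tested.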
